A study of Homo sapiens with 4 samples.

Results

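The nuclear genes that encode subunits of the mitochondrial respiratory chain and ATP synthase were followed in SH-SY5Y cells after knockdown of LSD1. SH-SY5Y is a human neuroblastoma line that grows in culture and has a neuronal character. LSD1, encoded by KDM1A, removes methyl groups from histone lysines. Members were chosen by gene symbol alone: NDUFA, NDUFB, NDUFC, NDUFS and NDUFV genes, SDHA to SDHD, the UQCR genes, CYC1, numbered COX subunit genes and ATP5 genes, without pseudogenes. The rule found 74 members among 19775 genes with a symbol of their own on the array. Of these, 68 were bright enough to be tested, out of 11865 tested genes in all. Levels were read on 4 Affymetrix arrays hybridized with total RNA. The 2 arrays called siControl came from cells transfected with a control small interfering RNA (siRNA), and the 2 called siLSD1 from cells given an siRNA against LSD1. All 4 came from the same line, each group from separate transfections according to the series' design text, so that p-values measure the spread between transfections. The labels give no siRNA sequence and no time after transfection. Levels are given as log2 signals, quantile normalized except where a sentence names another scaling, so that a difference of 1 is 2-fold. Differences are siLSD1 minus siControl. A signal depends on its probes as well as on its transcript, so levels of different genes are not compared.

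The respiratory chain passes electrons from nutrients to oxygen and pumps protons across the inner mitochondrial membrane on the way. ATP synthase uses the resulting gradient to make ATP. Complex I (NADH dehydrogenase, NDUF genes) and complex II (succinate dehydrogenase, SDH genes) feed electrons to coenzyme Q, complex III (UQCR genes and CYC1) passes them to cytochrome c, and complex IV (cytochrome c oxidase, COX genes) to oxygen. Neurons draw much of their ATP from this pathway. A few core subunits are encoded by mitochondrial DNA. The nuclear subunits are known to be controlled together, in part by the transcription factors NRF1, GABPA of the ETS family, YY1 and the estrogen-related receptors.

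The siRNA target was checked first. KDM1A had a signal of 9.79 and 9.78 in siControl and of 8.40 and 8.54 in siLSD1 cells, a difference of -1.32 (95% interval -1.69 to -0.95) or 40.04% of control. Its adjusted p over all genes was 0.39 in limma, so that the target was not called with this fit. It was called without siControl replicate 2 (adjusted p = 0.0474 in limma). In bulk cultures, fewer cells with a transcript and less of it per cell cannot be told apart, here and below. Markers of noradrenergic neuroblastoma cells were present: 10 of the 11 with a probe set passed the filter on dim genes, at 4.12, and TH, the tyrosine hydroxylase, did not. All 6 fibroblast markers also passed, with a summed linear signal of 864 and 624 in siControl and of 858 and 989 in siLSD1 cells. Of these 6, PDGFRB read 4.88 and 5.68 in siControl and 6.12 and 6.32 in siLSD1 cells (unadjusted p = 0.0267, adjusted p = 0.9996 in limma), COL3A1 also had both siLSD1 arrays above the controls (0.41), and the groups of the other 4 overlapped. Of the 8 Schwann, glial and blood markers with a probe set, HBB alone passed. The 3 ribosomal RNA control probe sets read 10.30 to 10.86 (deposited log2 signal) on siLSD1 replicate 2 and 5.21 to 6.58 on the other 3 arrays. The 5′ probe set of the ACTB control was at 11.11 on that array and at 11.67 to 11.85 elsewhere. The part of these markers and controls in the results below was not tested.

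Promoter sequence is shown for 3 members that recur in the results, to place the matches to regulator motifs known from this pathway. SDHA, the flavoprotein of complex II, had 4 matches to the looser NRF1 form GCGCNTGCG, each 49 bases after the last. SDHD, a membrane anchor of complex II, had a match to the NRF1 core GCGCATGCG and one to the ETS motif CCGGAAG. NDUFA6, an accessory subunit of complex I, had 1 match to the looser NRF1 form. The stretches end just before the RefSeq transcription start in GRCh38.p14 and lie at chr5:218140-218319 (SDHA, plus strand), chr11:112086753-112086872 (SDHD, plus strand) and chr22:42090773-42090832 (NDUFA6, minus strand). They are written 5′ to 3′ on the gene's strand, and capitals mark the matches on either strand, so that a match on the other strand reads as the reverse complement.
SDHA: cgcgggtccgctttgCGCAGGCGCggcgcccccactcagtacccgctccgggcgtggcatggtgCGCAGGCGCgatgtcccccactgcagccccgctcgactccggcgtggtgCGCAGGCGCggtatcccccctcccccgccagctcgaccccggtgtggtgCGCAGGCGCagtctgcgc
SDHD: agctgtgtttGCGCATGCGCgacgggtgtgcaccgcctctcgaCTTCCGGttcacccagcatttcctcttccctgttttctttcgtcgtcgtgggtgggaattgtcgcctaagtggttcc
NDUFA6: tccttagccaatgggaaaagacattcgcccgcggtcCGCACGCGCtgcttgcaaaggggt

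Windows from 250 bases before to 50 bases after the start were found for 63 of the 74 members. The NRF1 core was present in 11 of them (17.5%), against 4.43% of the 9745 tested genes with a window and 2.34% of all 27305 genes in the table. The looser NRF1 form, which includes the core, was present in 24 members (38.1%) and in 17.6% of tested genes. The ETS motif was present in 18 members (28.6%) and in 22.9% of tested genes, and the YY1 motif AAGATGGCG in 8 (12.7%) and in 4.8%. The Sp family motif GGGGCGGGG went the other way, with 10 members (15.9%) and 33.2% of tested genes. The estrogen-related receptor motif TCAAGGTCA was found in 1 member, SDHD. All motifs were searched on both strands. Most members held no match to either NRF1 form, and these shares describe sequence only.

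**Figure D1:**
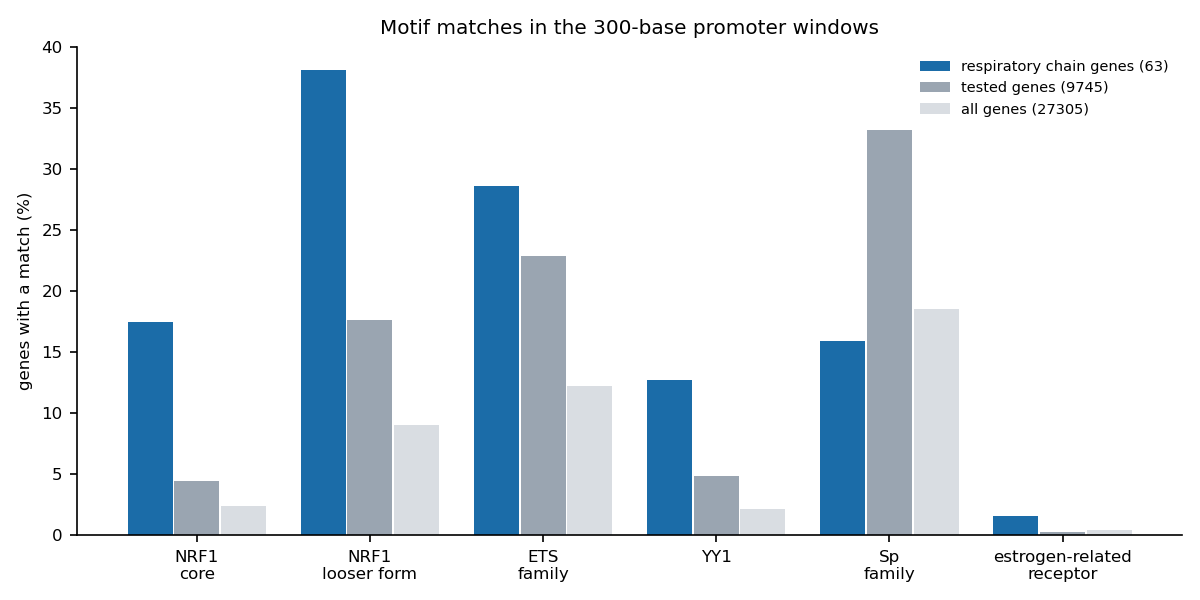
Share of genes (percent) with at least 1 match to each motif in a 300-base promoter window, for 63 respiratory chain genes, 9745 tested genes and 27305 genes in all. The bars of the respiratory chain genes stand above the others for every motif but the Sp family, with 17.5% for the NRF1 core, 38.1% for its looser form and 12.7% for YY1, and lie below the tested genes for the Sp family (15.9%).

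No subunit gene was called after LSD1 knockdown. At an adjusted p under 0.05 over all tested genes, limma called 0 of the 68 members and 0% of the 11865 genes. At an unadjusted p under 0.05 it gave 0 members higher, where 2.29% of all genes were, and 1 member lower, CYC1, where 1.15% were. Both siLSD1 arrays lay above both siControl arrays for 7 members (10.3%, against 16.6% of all genes) and below them for 12 (17.6%, against 15.1%). These shares were near or below the background. The count over all genes was not stable. Without siControl replicate 2 limma called 83 genes, with 0 members among them (smallest adjusted p of a member 0.096).

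The differences of the subunit genes were small. The median over the members was -0.02, with 29 higher and 39 lower, and the median over all tested genes was 0.0068. The direction of this median depended on the scaling. Under the deposited scaling 20 members were higher and 48 lower, and with each array centred on its median 61 were higher and 7 lower, where that centring raised the median of all genes to 0.18. Relative to all genes the members' median was -0.03 after quantile normalization and -0.0958 under both other scalings. Of the 68 members, 27 kept 1 sign under the 3 scalings. With median centring the medians of complexes I (0.11), III (0.02), IV (0.08) and ATP synthase (0.07) were above 0, in contrast to the values below 0 given for them below, and that of complex II was -0.11. With the mean of all probe sets the medians of complexes I (0.05), IV (0.05) and ATP synthase (0.01) were above 0 too. In that setting 69 members passed the filter, and the value for complex IV includes COX6A2, which is not among the 68. The median size of a member's difference, sign aside, was 0.083, against 0.166 for all tested genes, and 0 members differed by 1.5-fold or more, against 7.71% of all genes. Among the 4499 tested genes with a mean signal no lower than that of the dimmest tested member, the median size was 0.115 and the 1.5-fold share 2.20%. These genes were matched to the members at the lower end of the signal only. The 95% interval lay within 1.5-fold in either direction for 54 members (79.4%), against 26.1% of all tested genes and 61.3% of the 4499. For the other 14 members, the interval reached past 1.5-fold in 1 or both directions.

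**Figure D2:**
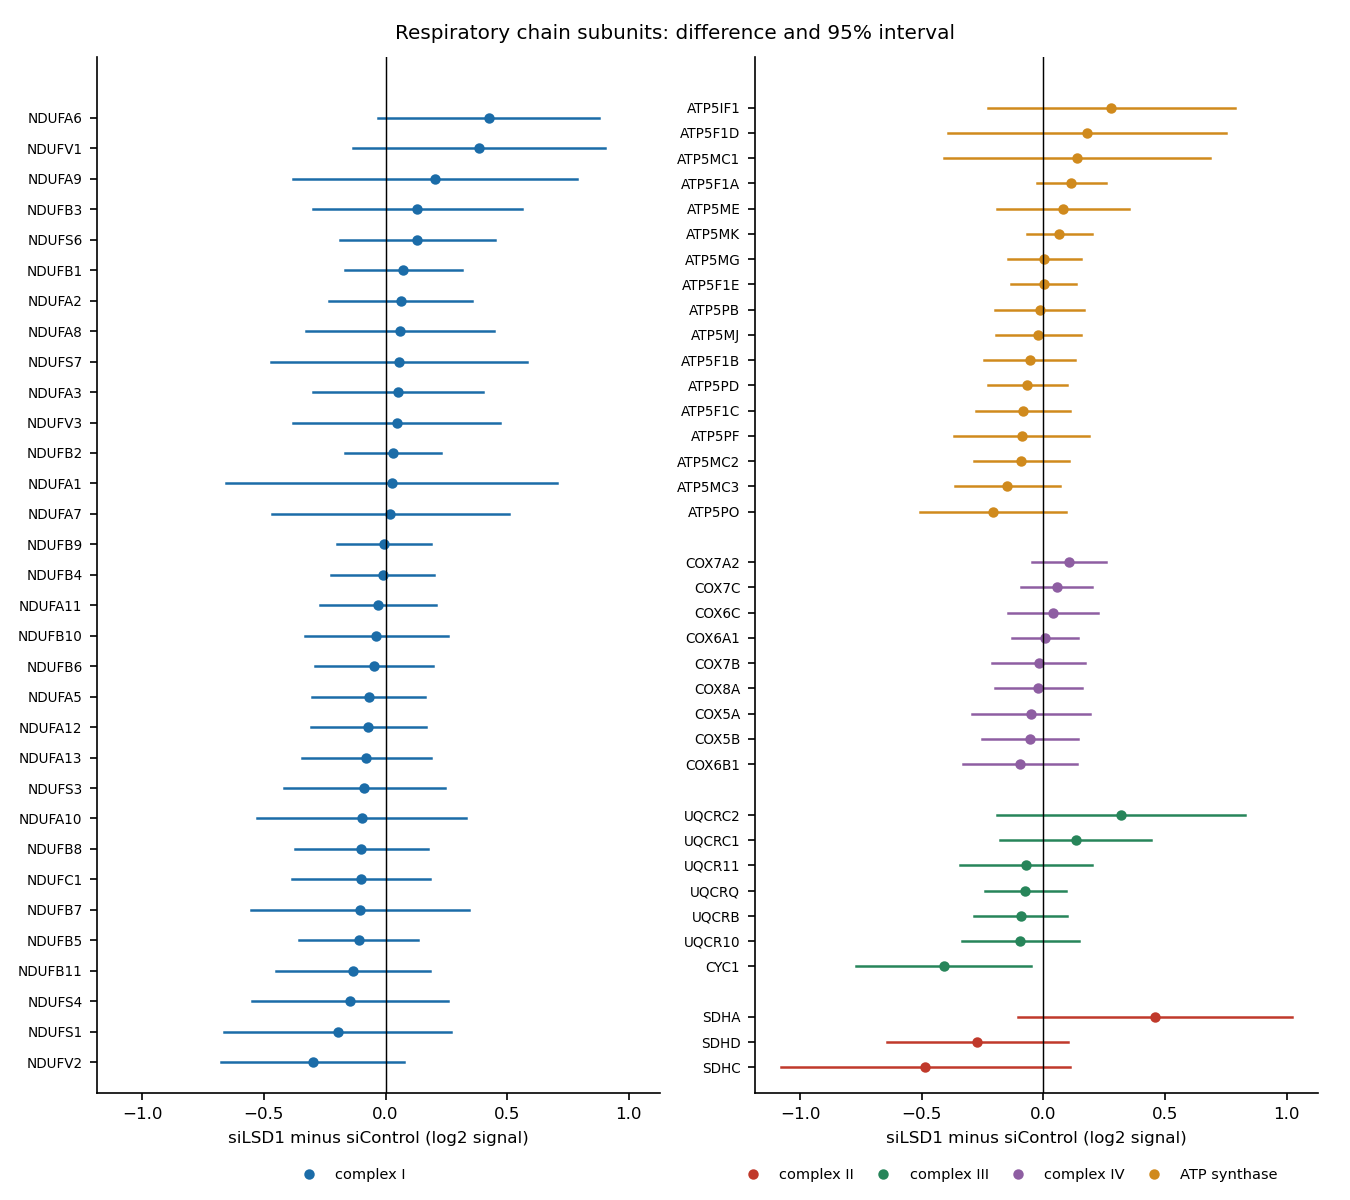
Difference between siLSD1 and siControl (log2 signal) with its 95% limma interval for the 68 tested members, grouped by complex. Points run from -0.49 (SDHC) to 0.46 (SDHA), and the interval of CYC1 alone, -0.77 to -0.05, leaves out 0.

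Complex I transfers electrons from NADH to coenzyme Q. Its 32 tested members had a median of -0.02, with 14 higher, 18 lower and 0 past the test. NDUFV1, which carries the flavin that accepts electrons from NADH, had a signal of 8.99 and 9.70 in siControl and 9.79 and 9.67 in siLSD1 cells. The siControl arrays differed more from each other than the groups did, and the groups overlapped. NDUFV2, its partner with an iron-sulfur cluster, was at 9.54 and 9.57 in siControl and at 9.41 and 9.11 in siLSD1 cells. Both siLSD1 values lay below both controls, with a difference of -0.30 (95% interval -0.68 to 0.08, adjusted p = 0.9996 in limma) that was -0.15 without siLSD1 replicate 2. The other core subunits are iron-sulfur proteins or help to bind the quinone. NDUFS1 was at 9.04 and 8.74 in siControl and at 8.85 and 8.53 in siLSD1 cells, a difference of -0.20 that was -0.04 without siLSD1 replicate 2. NDUFS3 had a difference of -0.09 that was 0.04 without siControl replicate 1, and NDUFS7 one of 0.06 that was -0.21 without siControl replicate 2. The groups of these 3 overlapped.

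The accessory subunits of complex I stabilize the enzyme around its core. Their differences ran from -0.15 to 0.42 over 27 genes. NDUFA6 had the largest, with 8.91 and 9.45 in siControl and 9.58 and 9.63 in siLSD1 cells (9.18 ± 0.38 and 9.60 ± 0.03, SD, n = 2). Both siLSD1 values were the higher, and the difference was 0.42 (95% interval -0.03 to 0.88, unadjusted p = 0.0649 and adjusted p = 0.9996 in limma), or 0.15 without siControl replicate 1. NDUFB4, which lies in the membrane arm, was at 11.45 and 11.50 in siControl and at 11.58 and 11.35 in siLSD1 cells, with siLSD1 replicates to either side of the controls. NDUFC1 was the only other complex I gene beside NDUFA6 and NDUFV2 whose groups did not overlap, with a difference of -0.10 that was -0.02 without siControl replicate 2. NDUFA1, a small membrane subunit encoded on the X chromosome, split by replicate number and not by siRNA. It read 9.62 on siControl replicate 1 and 9.58 on siLSD1 replicate 1, but 10.33 and 10.42 on the replicates 2, so that its group means of 9.98 and 10.00 were alike while its replicates were 0.70 and 0.84 apart.

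Complex II oxidizes succinate and belongs to both the chain and the tricarboxylic acid cycle. Its 3 tested members included the lowest and the highest difference of all 68, and 0 passed the test. SDHB was not analysed here. SDHA, the catalytic flavoprotein whose promoter is shown above, had a signal of 7.54 and 8.10 in siControl and 8.22 and 8.35 in siLSD1 cells. Both siLSD1 arrays were the higher, with a difference of 0.46 (95% interval -0.10 to 1.02, adjusted p = 0.9996 in limma) that was 0.18 without siControl replicate 1. Its single probe set is of a design (suffix _x_at) whose probes can match other transcripts, and SDHA has near-identical pseudogene copies, so that this value is uncertain. SDHC, a membrane anchor that helps to bind heme and quinone, was at 9.34 in both siControl replicates and at 8.44 and 9.27 in siLSD1 cells. The difference of -0.49 (95% interval -1.08 to 0.11) came from siLSD1 replicate 1 and was -0.07 without it. SDHD, the other anchor, was at 9.75 and 9.68 in siControl and 9.61 and 9.28 in siLSD1 cells. Both siLSD1 values lay below the controls, with a difference of -0.27 that was -0.11 without siLSD1 replicate 2. With the mean of its 2 probe sets, of which the second lay below the filter, the difference was -0.69 (unadjusted p = 0.0291 and adjusted p = 0.957 in limma).

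SDHC was the subunit with the most probe sets, 7 in all. Of the 6 others, which lay above the filter, 5 had a lower mean in siLSD1 cells. The 2 brightest of these read 9.17 and 9.07 in siControl against 8.84 and 8.53 in siLSD1 cells, and 8.99 and 8.75 against 8.63 and 8.28. On both, siLSD1 replicate 2 was the lowest array, whereas on the chosen probe set it was siLSD1 replicate 1. Their differences were -0.43 (unadjusted p = 0.0414 in limma) and -0.42, and both are of the same design as the SDHA probe set.

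Complex III passes electrons from coenzyme Q to cytochrome c. CYC1, the cytochrome c1 that hands over the electron, had the smallest p of all members. Its signal was 9.70 and 9.71 in siControl and 9.43 and 9.17 in siLSD1 cells, from its only probe set (group means 9.71 ± 0.0053 and 9.30 ± 0.19, SD, n = 2). The siControl arrays were nearly equal and both siLSD1 arrays lay below them. The difference was -0.41 (95% interval -0.77 to -0.05), or 75.3% of control, with an unadjusted p of 0.0300 and an adjusted p of 0.9996 in limma. The difference was negative under each scaling (-0.41 deposited, -0.24 with median centring, where the unadjusted p in limma was 0.149) and whichever array was left out (-0.54 to -0.28). Without a trend in limma its unadjusted p was not under 0.05. Its lowest value was on siLSD1 replicate 2, the array with the high ribosomal RNA controls. Without that array the difference was -0.28, and the part of those controls was not tested. UQCRC2, a core protein of the complex, was at 9.29 and 10.01 in siControl and at 9.89 and 10.04 in siLSD1 cells, a difference of 0.32 that turned to -0.04 without siControl replicate 1. UQCRC1, the other core protein, was at 9.70 and 9.62 in siControl and 9.83 and 9.75 in siLSD1 cells, a difference of 0.13 with groups that did not overlap. Among the small subunits, UQCRQ, a small subunit near the quinone site, read 11.40 and 11.41 in siControl and 11.32 and 11.34 in siLSD1 cells. UQCRB, UQCR10 and UQCR11 had differences from -0.10 to -0.07, and the last of these read 10.78 and 11.12 in siLSD1 cells, on either side of its controls. Without 1 array UQCR10 turned to 0.03 (siLSD1 replicate 2) and UQCR11 to 0.10 (siLSD1 replicate 1). On a second UQCR11 probe set above the filter, both siLSD1 arrays (5.16 and 5.67) lay below the controls (6.12 and 6.38). The difference there was -0.84 (unadjusted p = 0.0423 in limma), and which probe set follows the transcript was not tested. The median of the 7 tested members was -0.07 (2 higher, 5 lower). UQCRFS1 was not analysed here.

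**Figure D3:**
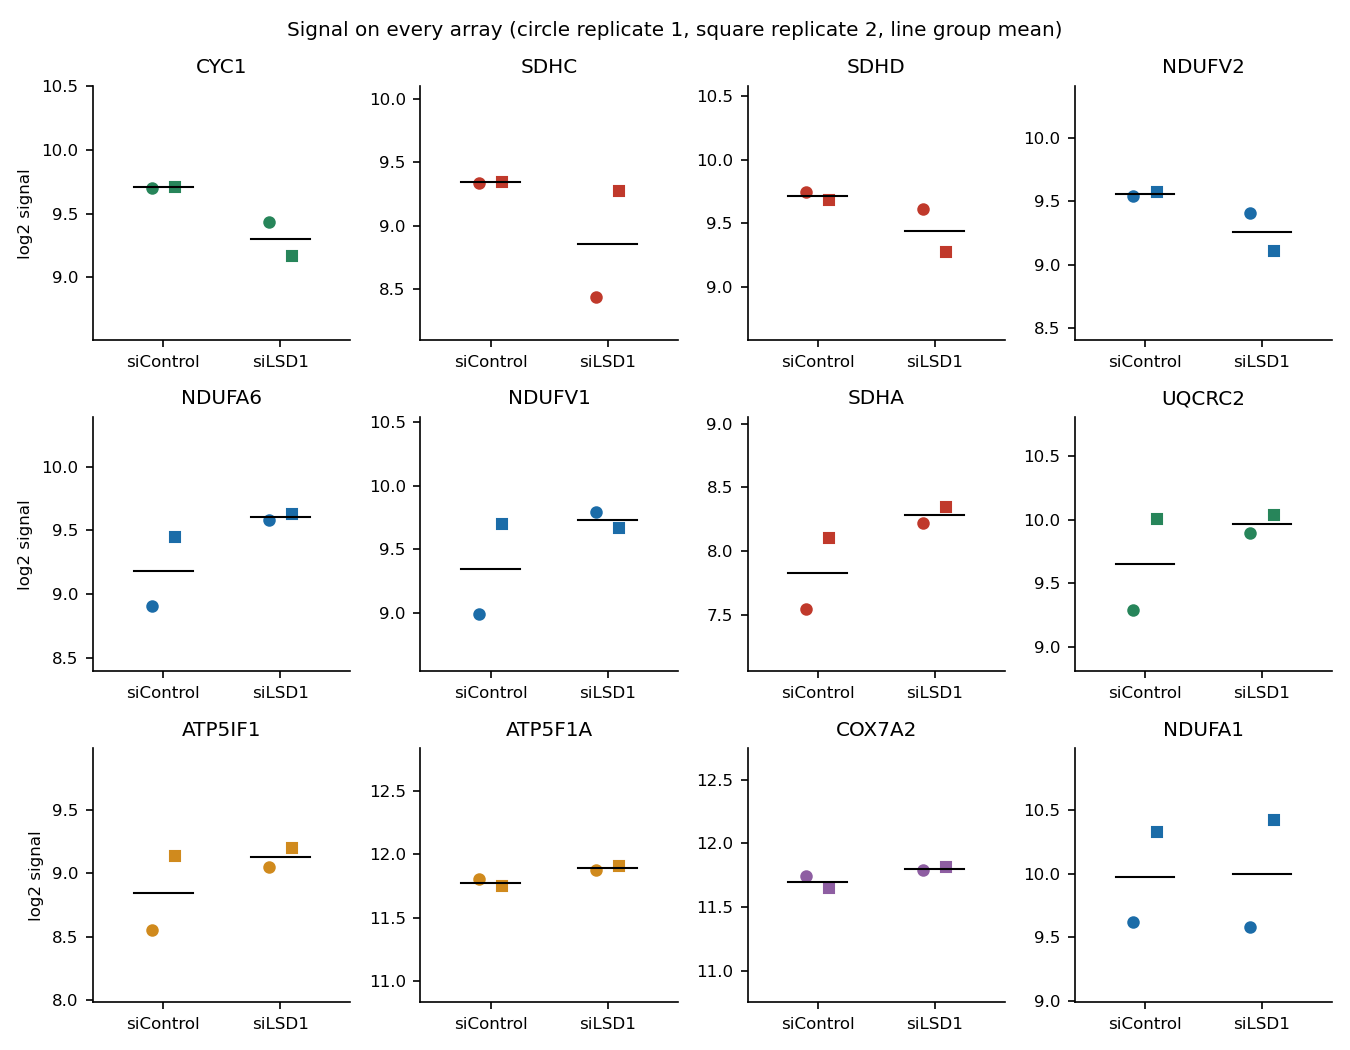
Log2 signal on each array for 12 members, on axes that span 2 log2 units around each gene's mean; circles are replicate 1, squares replicate 2 and lines the group means. In CYC1 both siLSD1 arrays (9.43 and 9.17) lie under the controls, in SDHA, NDUFV1 and UQCRC2 siControl replicate 1 lies apart, and in NDUFA1 the replicate numbers separate.

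Complex IV reduces oxygen to water. Its 9 tested members had the lowest median within-group SD of any complex, 0.028, and differences from -0.10 to 0.10. All 9 were bright, with means from 10.65 to 11.87. The genes of the catalytic F1 head of ATP synthase had a median SD of 0.027. The part of brightness in these spreads was not tested. COX7A2, a small membrane subunit, was at 11.74 and 11.65 in siControl and at 11.79 and 11.81 in siLSD1 cells. Both siLSD1 arrays were the higher, with a difference of 0.10 (95% interval -0.05 to 0.26) that was -0.01 under the deposited scaling. COX6B1, which joins the monomers of the enzyme on its outer face, was at 10.67 and 10.73 in siControl and 10.66 and 10.54 in siLSD1 cells, a difference of -0.10 that was -0.03 without siLSD1 replicate 2. COX6A1, the form of its subunit made in most tissues, read 11.85 and 11.88 in siControl and 11.87 on both siLSD1 arrays. All 9 intervals lay within 1.5-fold. COX7C was higher by 0.06 on its brightest probe set, whose groups did not overlap, and by 0.09 on another bright one, but on the remaining probe set it was lower, at 9.28 and 9.29 in siControl against 8.96 and 8.89 in siLSD1 cells (-0.36, unadjusted p = 0.0418 in limma). These probe sets disagree, and which of them follows the transcript was not tested.

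The tissue forms of complex IV were below the filter. COX6A2 and COX7A1 are forms of heart and skeletal muscle, and COX6B2, COX7B2 and COX8C are known from testis. Their signals ran from -0.99 to 4.02, under the filter level of 4.12 on every array. They were not tested with this filter on the brightest probe sets, and no fold is given. ATP5MF, a membrane subunit of ATP synthase, was the sixth gene below the filter, represented by 1 dim probe set. It read 1.19 and 2.10 in siControl and 3.93 and 4.76 in siLSD1 cells, with the siLSD1 replicate 2 value alone above the filter level. Without a filter limma gave it an unadjusted p of 0.00558 and an adjusted p of 0.99.

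ATP synthase has a catalytic head, F1, and a membrane part that the protons drive. Its 17 tested members had a median of -0.02, with 8 higher, 9 lower and 0 past the test. In the head, ATP5F1A, the alpha subunit, was at 11.81 and 11.75 in siControl and 11.88 and 11.91 in siLSD1 cells. Both siLSD1 arrays were the higher, by 0.12 (95% interval -0.03 to 0.26, adjusted p = 0.9996 in limma), and by 0.02 under the deposited scaling. ATP5F1B, the catalytic beta subunit, was at 11.53 and 11.37 in siControl and at 11.41 and 11.37 in siLSD1 cells, with overlapping groups. ATP5F1C, the gamma subunit that rotates within the head, had a difference of -0.09, with both siLSD1 arrays below the controls. ATP5F1E, the epsilon subunit, read 11.92 and 11.94 in siControl and 11.92 and 11.95 in siLSD1 cells. ATP5F1D, the delta subunit, was at 7.88 and 8.52 in siControl and at 8.38 in both siLSD1 replicates, so that the siControl arrays lay on either side.

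Among the other ATP synthase genes, ATP5PO, a protein of the peripheral stalk, had the most negative difference. It was at 11.21 and 10.82 in siControl and 10.77 and 10.85 in siLSD1 cells, a difference of -0.21 that was -0.01 without siControl replicate 1. A second ATP5PO probe set above the filter, of the _x_at design, went the other way. It read 8.02 and 7.86 in siControl and 8.10 and 8.42 in siLSD1 cells, a difference of 0.32 with groups that did not overlap. ATP5IF1, which inhibits the enzyme when the gradient collapses and is no subunit of it, was at 8.55 and 9.14 in siControl and 9.05 and 9.20 in siLSD1 cells. Its difference of 0.28 turned to -0.01 without siControl replicate 1, and its 2 other probe sets were at -0.20 and -0.27. Of the genes for the membrane rotor ring, ATP5MC2 (-0.09) and ATP5MC3 (-0.15) had both siLSD1 arrays below the controls. ATP5MC1 read 9.19 and 8.50 in siControl, on either side of 8.99 and 8.97 in siLSD1 cells, a difference of 0.14 (95% interval -0.41 to 0.68). ATP5MK, a small membrane subunit, was at 12.08 and 12.01 in siControl and 12.13 and 12.08 in siLSD1 cells, a difference of 0.07 that was -0.01 under the deposited scaling.

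Several members read low on 1 control array. On siControl replicate 1, 8 members lay more than 0.25 below their 4-array mean: NDUFA1, NDUFA6, NDUFA9, NDUFV1, SDHA, UQCRC2, ATP5F1D and ATP5IF1. On siControl replicate 2 and on siLSD1 replicate 1 it was 2 members each, and on siLSD1 replicate 2 it was 4. In these 8 genes siControl replicate 2 was higher than replicate 1 by 0.54 to 0.76. Genes chosen in this way must have a lower difference once that array is left out, so the change is no separate evidence. All 6 members with a difference of 0.2 or more were among them, which the choice also favours. The 5 members with a difference of -0.2 or less were NDUFV2, SDHC, SDHD, CYC1 and ATP5PO, and of these CYC1 alone moved by less than 1.5 times whichever array was left out. Over all tested genes 18.5% lay as far below their mean on siControl replicate 1, against 11.8% of the members. The sign of the difference was the same whichever array was left out for 30 of the 68 members, 9 higher and 21 lower.

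**Figure D4:**
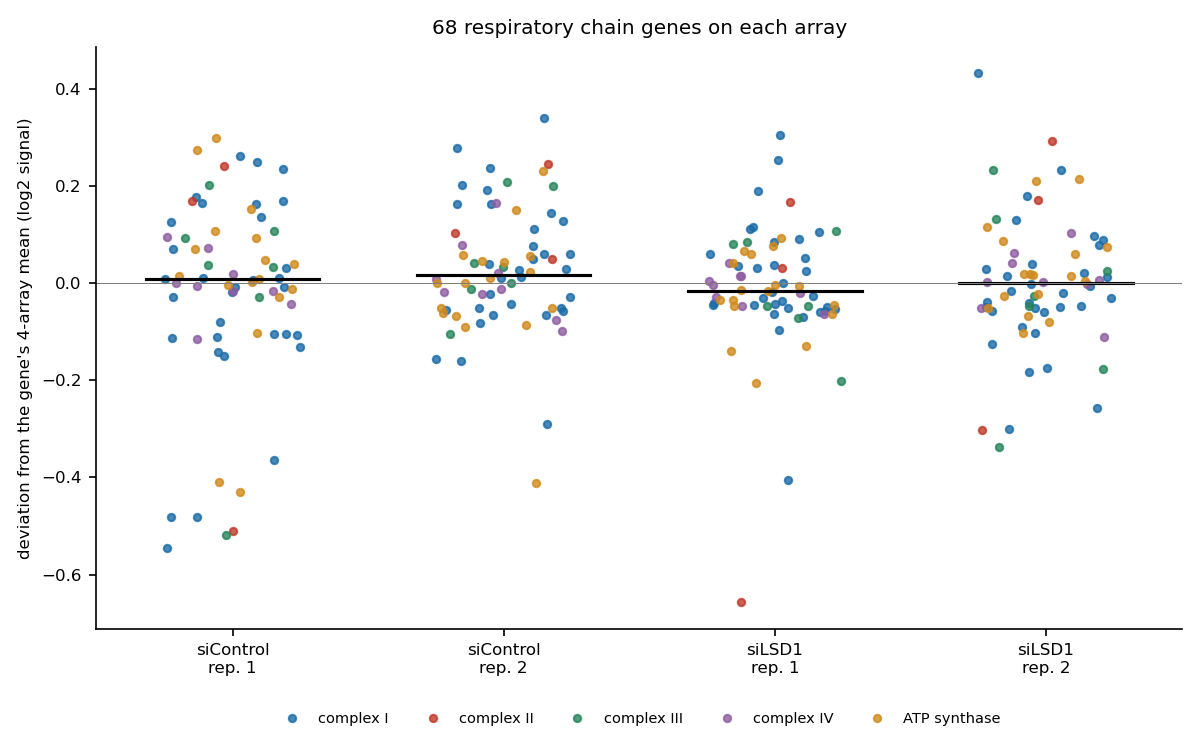
Deviation of each of the 68 tested members from its mean over the 4 arrays (log2 signal), by array and coloured by complex; the bars are medians. The medians lie between -0.02 and 0.02, while 8 genes on siControl replicate 1 fall below -0.25 and SDHC lies at -0.66 on siLSD1 replicate 1.

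Probe sets of the same gene often disagreed in sign. Of the tested members, 31 had further probe sets above the filter, 51 in all. Of these 51, 22 had the sign of the chosen probe set and 29 the opposite one, and in 8 of the 31 genes all probe sets had 1 sign. NDUFA6 had a second probe set at -0.13, in contrast to 0.42, and the 2 others of UQCRC2 were at -0.04 and 0.64. Of the chosen probe sets, 5 were of the _x_at design, whose probes can match other transcripts. Another 36 had the suffix _s_at, and whether their probes match other transcripts was not tested. With the mean of all probe sets in place of the brightest, 39 of these 68 members were higher and 29 lower, and 0 were called.

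Genes that build, feed or regulate the chain were described from lists. The medians and directions of all these lists, here and under the other observations, were read after quantile normalization only. The members' median turned with the scaling, and whether those of the lists do was not tested. Of 5 tested respiratory chain genes outside the symbol rule, 3 were higher, 2 lower and 0 past the test. COX4I1, a nuclear subunit of complex IV, had a difference of 0.01, CYCS, the cytochrome c, of -0.08 and NDUFAB1, an acyl carrier protein of complex I, of 0.24. NDUFAB1 read 10.79 and 11.18 in siControl and 11.26 and 11.19 in siLSD1 cells, with siControl replicate 1 apart from the rest. Of 48 tested assembly factors, which insert cofactors and join the subunits, the median was -0.09, with 14 higher, 34 lower and 0 past the test. At an unadjusted p under 0.05 in limma there were 0 in either direction, where 2.29% of all tested genes were higher and 1.15% lower. Both siLSD1 arrays were above the controls for 5 of the 48, against 16.6% of all tested genes. They were below the controls for 14 of the 48, against 15.1%. The share higher was thus below the background and the share lower above it, and what lies behind this was not tested. Those with the smallest p were SCO2, a copper chaperone (0.69, groups overlapping), COX18, which inserts a complex IV subunit into the membrane (-0.54, groups overlapping), and TIMMDC1, a complex I factor (-0.18, both siLSD1 arrays the lower). In the synthesis of coenzyme Q and cytochrome c, the 14 tested genes had a median of -0.06, with 6 higher, 8 lower and 0 past the test. Both siLSD1 arrays were above the controls for 1 of the 14 and below them for 3. COQ7, a hydroxylase of this pathway, was at 7.39 and 6.86 in siControl and 6.69 and 6.37 in siLSD1 cells, a difference of -0.59 with both siLSD1 arrays the lower.

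The 18 tested regulators of respiratory genes had a median of -0.07, with 7 higher, 11 lower and 0 past the test. At an unadjusted p under 0.05 in limma there were 0, where 2.29% of all tested genes were higher and 1.15% lower. Both siLSD1 arrays were above the controls for 1 of the 18 and below them for 2. Their differences ran from -0.22 to 0.23. NRF1, the factor whose motif was searched above, was at 7.80 and 7.15 in siControl and at 7.33 and 7.18 in siLSD1 cells, with overlapping groups. GABPA (7.81 and 7.70 against 7.51 and 7.78) and TFAM (9.43 and 9.22 against 9.17 and 9.29), which packages mitochondrial DNA, overlapped as well. The coactivators PPARGC1A and PPARGC1B and the receptor ESRRB were below the filter and were not tested.

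**Figure D5:**
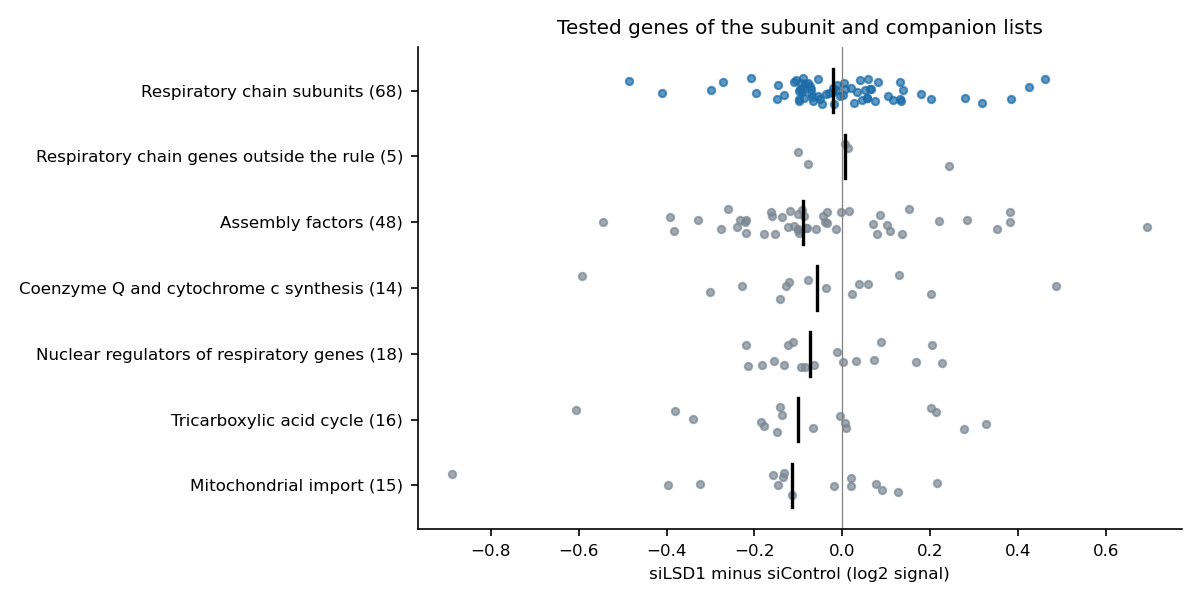
Difference between siLSD1 and siControl (log2 signal) for each tested gene of the subunit list and the companion lists, with the number of genes in parentheses and the median as a bar. The subunit genes lie within -0.49 and 0.46 around a median of -0.02, and the 48 assembly factors have a median of -0.09. All values are after quantile normalization.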

How the data were processed

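Gene expression was measured on 4 arrays, 2 siControl and 2 siLSD1, grouped and numbered by the sample titles. The authors deposited 1 log2 signal per probe set and array. The log base was inferred from the values: after 2% at each end were trimmed, the linear signals of each array averaged 100.03 in base 2. Software that made the signals: not given in the sources used.

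Arrays were quantile normalized. Of 54675 probe sets, 41091 named 1 gene in GEO's platform annotation, which can be old, and the one with the highest mean represented its gene. Genes with a mean below the 40th percentile (4.12) were left out. R 4.3.3 with limma 3.58.1 (lmFit, eBayes with trend, two-sided, no replicate term, 8.22 degrees of freedom) was used with Benjamini-Hochberg adjustment over all 11865 genes. An exact test of 2 against 2 arrays cannot go below p = 0.333. No 2 arrays were identical. The fit was tested on simulated data.

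Members and lists were chosen with earlier results of these data known. KDM1A and, in each complex, the member with the highest mean signal (a rule of choice, not a comparison of levels), those with the smallest p, the most positive and the most negative difference, and core subunits were named. SDHC probe sets, COX7C, NDUFA1, NDUFA9, NDUFC1, ATP5MC1 to ATP5MC3, UQCRB, UQCR10, UQCR11, ATP5MF and, in the companion lists, COX4I1, NRF1, GABPA and TFAM were named after their values were seen. COX7B2 was counted as a member and not in the list of genes outside the rule. Mitochondrially encoded subunits were not analysed here. Promoters came from RefSeq windows for GRCh38.p14. Alternatives were other scalings, filters and probe set rules, no trend, the replicate number as a block and each array left out.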

Additional observations from a re-analysis of the deposited data

How the results depend on the processing

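The 95% interval of a member's difference had a median half-width of 0.27, and 0 members were called in any setting tried. KDM1A had an adjusted p of 0.0194 with the replicate number as a block (-1.32), and differences of -1.39 to -1.25 without 1 array, with an adjusted p of 0.0474 without siControl replicate 2. The count of called genes was 13 with the replicate block, and 0 to 83 without 1 array, the 83 without siControl replicate 2. Same-numbered arrays did not deviate together (correlation 0.0522 over 11865 genes), so the numbers were not taken as pairs, and the block called 0 members. Members at an unadjusted p under 0.05 numbered 4 with median centring, 2 without a filter, 3 with the mean of all probe sets, 0 without a trend, 3 with the replicate block and 1 to 8 without 1 array. The share of all tested genes at that unadjusted p was not set beside these counts. Whether any of them lay above the background of its setting was therefore not tested. The members' median was -0.089 under the deposited scaling and 0.084 with median centring. With the mean of all probe sets it was 0.028, over 69 members that include COX6A2. Without 1 array the members' median was -0.037 to -0.0012.

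Of 25 named members, the direction turned under the deposited scaling for ATP5F1E (-0.087), ATP5MK (-0.010), COX6A1 (-0.088) and COX7A2 (-0.011). With median centring, which adds 0.173 to the deposited difference of every gene and so shows nothing about single genes, it turned for ATP5F1B (0.048), ATP5F1C (0.031), COX6B1 (0.028), NDUFB4 (0.089), NDUFS3 (0.055) and UQCRQ (0.020). With the mean of all probe sets it turned for ATP5F1E (-0.56), ATP5IF1 (-0.064), ATP5PO (0.054), COX6A1 (-0.086), NDUFB4 (0.10) and NDUFS1 (0.011). The only further probe sets of ATP5F1E (mean signal 4.06) and COX6A1 (-0.73) lay below the filter, so these turns rest on dim signals. The other genes that turned in this setting had a further probe set above the filter. Without 1 array it turned for ATP5F1B (-0.14 to 0.022), ATP5F1D (-0.14 to 0.50), ATP5F1E (-0.015 to 0.017), ATP5IF1 (-0.011 to 0.57), COX6A1 (-0.0052 to 0.019), NDUFB4 (-0.13 to 0.11), NDUFS3 (-0.21 to 0.038), NDUFS7 (-0.21 to 0.32) and UQCRC2 (-0.041 to 0.68). The cause of the turns with probe sets and arrays was not tested. The other filters, the fit without a trend and the replicate block turned none of the 25.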

Other observations

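Enzymes that supply the chain with electrons were described in the same way. The 16 tested genes of the tricarboxylic acid cycle and its entry had a median difference of -0.10, with 6 higher and 10 lower. In limma 0 were past the test, as over all tested genes. At an unadjusted p under 0.05 there were 0, where 2.29% of all tested genes were higher and 1.15% lower. Of the 16, 1 had both siLSD1 arrays above the controls and 5 had both below, against 16.6% and 15.1% of all tested genes. CS, the citrate synthase, was at 9.66 and 10.09 in siControl and 10.19 and 10.12 in siLSD1 cells (0.28), DLST, a subunit of the oxoglutarate dehydrogenase complex, was at 6.89 and 7.80 against 6.80 and 6.68 (-0.61), and IDH3G, a subunit of isocitrate dehydrogenase, was at -0.34. In CS the siControl replicate 1 value was the low one. Among the 8 members described above as low on that array, it was the lowest array in all but NDUFA1. In NDUFA1, siLSD1 replicate 1 read 9.58 and siControl replicate 1 read 9.62.

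Of 15 tested genes of the machinery that imports the subunits into mitochondria, 0 were past the test, 0 were higher at an unadjusted p under 0.05 (2.29% of all tested genes were) and 1 was lower (1.15% of all tested genes were). This gene, TIMM44, which couples the import motor to the inner membrane channel, had 7.52 and 7.20 in siControl and 6.32 and 6.62 in siLSD1 cells, a difference of -0.89 (unadjusted p = 0.00867, adjusted p = 0.9996 in limma). Both siLSD1 arrays lay below both controls. Of the 15 import genes, 1 had both siLSD1 arrays above the controls and 6 had both below, against 16.6% and 15.1% of all tested genes. The share lower was above the background, and what lies behind this was not tested. The median of the 15 tested import genes was -0.12 (6 higher, 9 lower), and TIMM17B, a channel subunit, was at -0.40 and TOMM20, a receptor of the outer membrane, at 0.08.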
